A study of Homo sapiens with 4 samples.

Results

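The genes described here encode the MHC class I antigen presentation pathway. The set held 9 genes, taken by symbol from the 19381 genes of the deposited count and TPM tables: HLA-B, HLA-C, HLA-E, HLA-F, B2M, TAP1, TAP2, TAPBP and NLRC5. All 9 were found and all 9 passed the filter on low counts, which left 12906 genes for testing. RNA was sequenced, after ribosomal RNA removal, from SK-LMS-1, an established human line that the labels describe as uterine leiomyosarcoma, a malignant smooth muscle tumour. The cells were either untreated (2 libraries) or treated with 50 µM 2-D08 for 48 h (2 libraries). 2-D08 blocks conjugation of SUMO, a small ubiquitin-like modifier, to proteins. All cells were grown in serum-containing MEM. The labels name no vehicle for the untreated cells, and every library comes from this single line. Whether replicates are separate cultures is not stated, so p-values reflect only how far these libraries differ, possibly for technical reasons. In bulk RNA, fewer cells expressing a gene and less RNA per cell cannot be told apart.

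MHC class I molecules show short peptides from inside the cell to CD8 T cells and natural killer cells. A polymorphic heavy chain (HLA-B, HLA-C) or a less variable one (HLA-E, HLA-F) pairs with the light chain beta-2-microglobulin (B2M). Peptides cut by the proteasome enter the endoplasmic reticulum through the TAP1/TAP2 transporter, and tapasin (TAPBP) bridges that transporter to empty class I molecules. NLRC5 is a nuclear coactivator of class I genes that acts through the RFX factors and NF-Y bound at their promoters.

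Total counts ran from 14796702 to 31300635 per library. In untreated replicate 1 and treated replicate 2, 89.0% and 88.8% of the nonzero counts were even numbers, against 48.4% and 47.9% in the other libraries. With the counts of those 2 libraries halved, HLA-B, B2M, TAP2 and NLRC5 kept their calls (edgeR adjusted p = 0.00204, 0.0292, 0.00153 and 0.0225). Among the 9 genes, 8, 6, 3 and 4 counts were even in untreated replicates 1 and 2 and treated replicates 1 and 2. The difference within each class of library is given below. Smooth muscle markers were present, among them MYLK (334 and 325 CPM untreated, 122 and 134 CPM treated) and CALD1 (641 and 680, then 445 and 523 CPM). DES and MYOCD, muscle genes of the same list, had no more than 2 counts in any library. Of 10 tested smooth muscle markers 1 was higher and 5 lower after treatment, next to 17.1% and 16.9% of all tested genes. The list's summed level was 1635 and 1653 CPM in untreated and 1234 and 1291 CPM in treated cells. Of 5 tested epithelial markers 3 were lower, and their list summed to 339 and 299 and then 273 and 226 CPM. Of 12 immune cell markers 3 could be tested and 2 rose, LCP1 from 1.21 and 0.787 to 4.58 and 5.77 CPM and CD68 from 60.4 and 65.3 to 93.4 and 92.6 CPM. PTPRC, a general leukocyte marker, and CD3E, a T cell marker, stayed under 1 CPM, and MS4A1, FCGR3A and HBB had 0 counts in every library. The summed level of the immune list was 62.7 and 67.4 CPM in untreated and 99.3 and 101 CPM in treated libraries, and the part of these marker lists in the class I values was not tested.

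Class I genes are known for a shared upstream layout: an NF-kappa-B element and an interferon response element lie above a module bound by RFX, CREB/ATF and NF-Y proteins. The stretch from 200 to 45 bases before the RefSeq start (GRCh38.p14) is shown for the 3 genes that rose and for HLA-C, the close relative of HLA-B that did not pass the test. Each is written 5′ to 3′ on the gene's strand, and capitals mark matches on either strand to the interferon response core (GAAA, any 2 bases, GAAA), the NF-kappa-B consensus, CCAAT or TGACG. Adjoining or overlapping matches merge into 1 run of capitals. These are reference sequences, and the alleles of SK-LMS-1 may differ.
HLA-B: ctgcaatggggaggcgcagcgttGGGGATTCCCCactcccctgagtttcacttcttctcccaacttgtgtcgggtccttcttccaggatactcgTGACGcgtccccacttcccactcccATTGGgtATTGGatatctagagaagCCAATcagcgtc
HLA-C: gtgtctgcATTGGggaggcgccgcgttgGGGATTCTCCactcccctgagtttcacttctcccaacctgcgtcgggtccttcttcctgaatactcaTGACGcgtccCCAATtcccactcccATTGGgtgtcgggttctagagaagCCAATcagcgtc
B2M: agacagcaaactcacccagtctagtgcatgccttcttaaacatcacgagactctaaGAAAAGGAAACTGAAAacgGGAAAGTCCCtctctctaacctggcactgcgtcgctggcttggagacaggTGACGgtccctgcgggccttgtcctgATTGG
TAP2: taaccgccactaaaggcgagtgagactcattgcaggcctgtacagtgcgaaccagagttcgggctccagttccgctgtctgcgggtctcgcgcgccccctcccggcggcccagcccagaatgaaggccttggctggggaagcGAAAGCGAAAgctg
The stretches lie at chr6:31357224-31357379 (HLA-B, minus strand), chr6:31272137-31272292 (HLA-C, minus), chr15:44711317-44711472 (B2M, plus) and chr6:32838784-32838939 (TAP2, minus).

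The HLA-B and HLA-C stretches were 87.5% identical over 160 aligned columns, while the other pairs were 46.3% to 52.3% identical. In the 250 bases before the start, 7 of the 9 genes had an entry to search. The interferon response core was found for 5 of these 7 (B2M, HLA-F, TAP1, TAP2 and TAPBP), against 3.02% of 35116 promoter windows of the same length. The NF-kappa-B consensus was found for 5 of 7 (HLA-B, HLA-C, B2M, TAP1 and TAPBP), against 5.21% of all windows. CCAAT was found for 5 of 7 (32.0% of all windows), TGACG for 4 of 7 (21.2%) and TTCNNNGAA, the STAT element, for 1 of 7 (6.57%). TAP1 has a pair of entries, and a match in either was counted. HLA-B and HLA-C carried the same 3 kinds of match (NF-kappa-B, CCAAT and TGACG), and the NF-kappa-B matches of HLA-B overlap each other on both strands. A match is a string of letters and does not show that a factor binds. Only these patterns were searched, so a missing match does not show that an element is absent, for HLA-B and HLA-C included.

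After treatment HLA-B, B2M and TAP2 transcripts rose, NLRC5 fell, and HLA-C, HLA-E, HLA-F, TAP1 and TAPBP did not pass the test. Thus 4 of 9 genes changed (3 higher, 1 lower) by edgeR's quasi-likelihood test with Benjamini-Hochberg adjustment over all genes, at an adjusted p under 0.05. The background was high: 33.9% of all tested genes changed, 17.1% higher and 16.9% lower, so 44.4% of 9 genes is not a result about this set. The median log2 fold change of the 9 was 0.19 (-0.0033 over all genes), and the median size regardless of direction was 0.27 (0.28 over all genes). Within both classes of library 4 of the 9 genes were higher and 2 lower in the treated cells, and 3 went opposite ways. By CPM, 8 of the 9 were lower in treated replicate 2 than in treated replicate 1. The share of all genes was not counted for these comparisons, so they are not read as traits of the set. Levels of 5 of the 9 did not overlap between groups, which was also so for 67.5% of all tested genes (33.8% higher and 33.7% lower). In the alternative fits cited below, the share of all genes called was 12.4% on log2(TPM + 1), 12.5% on log2(TPM + 0.1), 27.8% with DESeq2, 35.7% with limma-voom and 33.8% on the transformed values. It was 48.3% with the replicate block, 26.1% with the even-count class as a block, 34.3% with halved counts, 32.6% with thinned counts, 34.3% with RLE scaling and 32.6% with library size only. Without a filter on low counts it was 26.3%, and where genes needed a mean of 5 CPM it was 36.6%. Leaving out a library gave 14.4% and 19.9% (untreated replicates 1 and 2) and 45.2% and 36.7% (treated replicates 1 and 2).

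**Figure D1:**
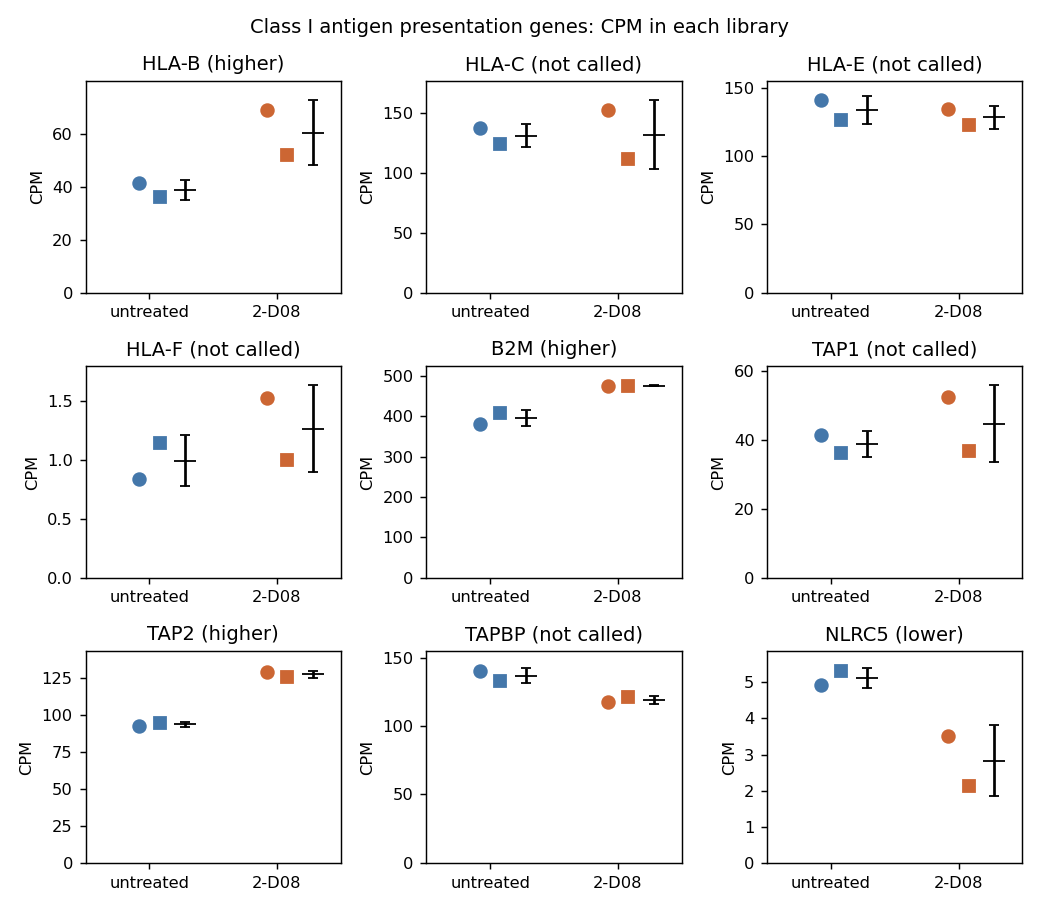
TMM-scaled CPM on linear axes from 0 of each gene in the untreated (blue) and 2-D08 (orange) libraries; circles are replicate 1, squares replicate 2, and black marks the mean ± SD (n = 2). HLA-B, B2M and TAP2 lie higher in both treated libraries and NLRC5 and TAPBP lower, while HLA-C, HLA-E, HLA-F and TAP1 overlap.

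Among the classical heavy chains, HLA-B (ENSG00000234745, chromosome 6, 31353875 to 31357179) was at 41.4 and 36.2 CPM in untreated cells and at 69.0 and 51.8 CPM in treated cells. The groups did not overlap, although the treated libraries lay further apart (SD 12.2) than the untreated ones (SD 3.67, n = 2 each). The log2 fold change was 0.63 ± 0.13 (SE; 95% interval 0.34 to 0.91), or 1.54-fold (edgeR adjusted p = 0.00278). Between the mostly even libraries the log2 difference was 0.32, and between the other libraries 0.93. Without treated replicate 1 the fitted change was 0.41 and still called (edgeR adjusted p = 0.000944). On deposited TPM, HLA-B was at 53.2 and 37.4 in untreated and 80.1 and 69.6 in treated libraries, and with limma on log2(TPM + 1) the adjusted p was 0.0530.

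HLA-C (chromosome 6, 31268749 to 31272092), the other classical heavy chain measured here, was at 138 and 124 CPM in untreated cells and at 152 and 111 CPM in treated cells. The treated libraries lay on either side of the untreated ones. The log2 fold change was 0.0038 ± 0.13 (interval -0.26 to 0.27; edgeR adjusted p = 0.984), which leaves room for a shift of this size in either direction. Its sign followed the treated library used: the change was 0.21 without treated replicate 2 (edgeR adjusted p = 0.0392) and -0.24 without treated replicate 1 (edgeR adjusted p = 0.0148).

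The ratio of HLA-B to HLA-C counts within a library varied less between replicates than either gene. It was 0.301 and 0.292 before treatment and 0.454 and 0.465 after it, 1.55 times higher on average. As a fraction of the summed CPM of the 4 heavy chain genes, HLA-B made up 0.129 and 0.126 in untreated cells and 0.193 and 0.181 in treated cells. On the TPM scale the HLA-B to HLA-C ratio was 0.375 and 0.305 in untreated and 0.526 and 0.643 in treated libraries. The groups were apart on both scales, but an exact two-sided permutation test of 2 against 2 libraries cannot give a p below 0.333, so none was run.

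**Figure D2:**
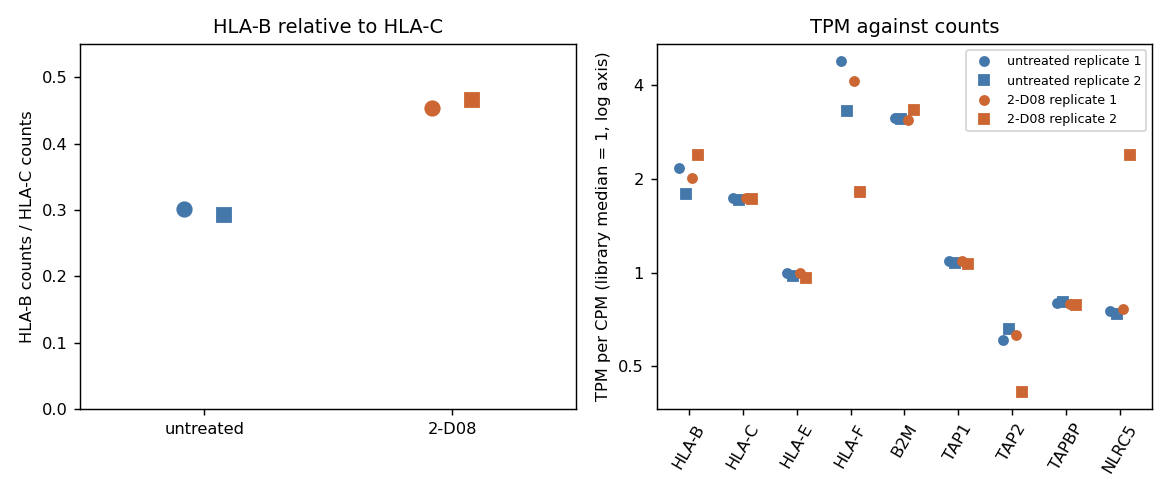
Left, HLA-B counts divided by HLA-C counts in each library, 0.292 to 0.301 untreated and 0.454 to 0.465 treated. Right, TPM per CPM for each gene on a log axis, scaled so that the median gene of each library is 1; treated replicate 2 stands apart for NLRC5, TAP2 and HLA-F.

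The non-classical heavy chains did not pass the test. HLA-E (chromosome 6, 30489509 to 30494194), the ligand of the NKG2A receptor on natural killer cells, was at 141 and 127 CPM in untreated and at 135 and 123 CPM in treated libraries. Its log2 fold change of -0.06 ± 0.10 (interval -0.27 to 0.15) left little room for a large change. HLA-F (chromosome 6, 29723434 to 29738532), a heavy chain that can also reach the surface without peptide, rested on 25, 19, 23 and 31 counts. Its log2 fold change was 0.33 ± 0.44 (interval -0.61 to 1.27), and a change was not detectable at this depth.

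B2M (ENSG00000166710, chromosome 15, 44711517 to 44718145) was the most abundant transcript of the set. It was at 381 and 409 CPM in untreated cells and at 476 and 474 CPM in treated cells. The fitted rise was 0.27 ± 0.09 on the log2 scale (SE; interval 0.08 to 0.45), or 1.20-fold (edgeR adjusted p = 0.0312). The treated libraries differed by less than the untreated ones. The difference was 0.31 between the mostly even libraries and 0.22 between the others. The call was lost without untreated replicate 1 (0.22, edgeR adjusted p = 0.452), without untreated replicate 2 (0.31, edgeR adjusted p = 0.203), on log2(TPM + 1) (0.27, limma adjusted p = 0.0818) and with the even-count class as a block (0.27, edgeR adjusted p = 0.146). The fitted change thus stayed between 0.22 and 0.31 over all 17 alternatives.

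Per length, the order of levels in untreated cells was B2M (708 and 734 TPM), HLA-C (142 and 123), HLA-E (83.2 and 71.5), TAPBP (66.5 and 61.6), HLA-B (53.2 and 37.4), TAP2 (33.3 and 36.1), TAP1 (26.7 and 22.4), then HLA-F and NLRC5 at 2.19 to 2.40 TPM. These neighbours overlapped only for HLA-F and NLRC5. In treated cells HLA-B (80.1 and 69.6 TPM) stood level with HLA-E (77.1 and 66.4 TPM), and their ranges overlapped, as did those of TAP2 and TAP1 and of HLA-F and NLRC5. B2M exceeded the heavy chains throughout: their summed TPM was 0.396 and 0.318 of the B2M TPM in untreated and 0.368 and 0.276 in treated libraries, with overlapping groups.

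TAP2 and TAP1 encode the 2 subunits of the peptide transporter. TAP2 (ENSG00000204267, chromosome 6, 32821831 to 32838739) was at 92.4 and 94.9 CPM in untreated cells and at 129 and 126 CPM in treated cells. Its log2 fold change was 0.45 ± 0.09 (SE; interval 0.25 to 0.64), or 1.36-fold (edgeR adjusted p = 0.00179), and it was 0.44 and 0.45 within the 2 classes of library. The call was lost without untreated replicate 1 (0.43, edgeR adjusted p = 0.0756).

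TAP1 (chromosome 6, 32845209 to 32853704) was at 41.4 and 36.1 CPM in untreated and at 52.6 and 36.8 CPM in treated libraries. Only treated replicate 1 lay clear of the untreated range. The log2 fold change was 0.19 ± 0.15 (interval -0.13 to 0.51; edgeR adjusted p = 0.351). It was 0.43 without treated replicate 2 (edgeR adjusted p = 0.00138) and -0.09 without treated replicate 1. Whether TAP1 and TAP2 changed by different amounts was not tested, and their intervals overlap.

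Tapasin, encoded by TAPBP (chromosome 6, 33299694 to 33314078), was at 141 and 133 CPM in untreated and at 117 and 121 CPM in treated cells. The groups did not overlap, but the log2 fold change of -0.20 ± 0.09 (interval -0.39 to -0.01) missed the threshold after adjustment (edgeR adjusted p = 0.105). It was past the threshold without treated replicate 2 (-0.23, edgeR adjusted p = 0.0273) and with the replicate block (edgeR adjusted p = 0.0246).

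NLRC5 (ENSG00000140853, chromosome 16, 56989557 to 57083520) showed the largest fold change of the 9 genes on counts, and it was downward. It was at 4.92 and 5.33 CPM (146 and 88 counts) in untreated and at 3.52 and 2.14 CPM (53 and 66 counts) in treated libraries. The groups did not overlap. The log2 fold change was -0.91 ± 0.27 (SE; interval -1.49 to -0.33; edgeR adjusted p = 0.0190), and it was -1.20 between the mostly even libraries and -0.60 between the others. The call was lost with DESeq2 (adjusted p = 0.0556), without untreated replicate 1 (edgeR adjusted p = 0.0511), without untreated replicate 2 (0.0707) and without treated replicate 2 (-0.54, adjusted p = 0.147).

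The deposited TPM gave another picture for NLRC5 and TAP2. NLRC5 was at 2.19 and 2.26 TPM in untreated and at 1.55 and 2.88 TPM in treated libraries, so treated replicate 2 was the lowest library on CPM and the highest on TPM. With limma on log2(TPM + 1) its change was -0.04 (adjusted p = 0.930). TAP2 was at 33.3 and 36.1 TPM in untreated and at 47.0 and 29.1 TPM in treated libraries, and its change on that scale was 0.09 (limma adjusted p = 0.80). With the median gene of each library set to 1, NLRC5 had 0.750, 0.735 and 0.764 TPM per CPM in the first 3 libraries and 2.39 in treated replicate 2. TAP2 had 0.607, 0.659 and 0.630 and then 0.412, and HLA-F had 4.80, 3.31, 4.11 and then 1.82. The highest of these 4 values exceeded the lowest by 3.25 times for NLRC5, 2.64 times for HLA-F, 1.60 times for TAP2 and at most 1.33 times for the other 6 genes. Over 12832 genes the median was 1.12 times, and 10.8% of genes exceeded 1.5 times. The sources used here do not name the tool or transcript models behind the TPM, and what sets this library apart for these genes was not tested. On the deposited transformed values TAP2 (0.41) and NLRC5 (-0.40) kept their calls (limma adjusted p = 0.00214 and 0.0145).

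**Figure D3:**
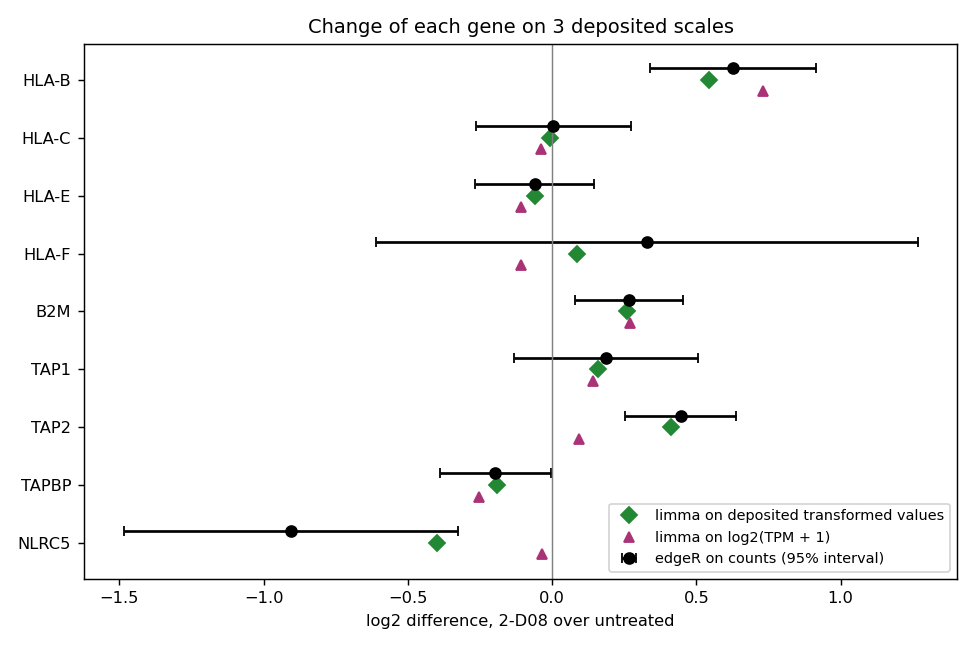
Log2 difference between treated and untreated libraries for each gene by edgeR on counts (black, 95% interval), limma on the deposited transformed values (green) and limma on log2(TPM + 1) (purple). HLA-B and B2M sit to the right on all 3 scales, while TAP2 and NLRC5 move close to 0 on TPM (0.09 and -0.04).

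Reads of related genes can be shared between them. Of the 50-base windows of the longest GENCODE release 29 coding transcript, 2.54% for HLA-B, 6.71% for HLA-C, 5.13% for HLA-E and 1.70% for HLA-F occurred identically in a transcript of another gene. For B2M and NLRC5 no window did. For TAP2 it was 35.8%, all of them in AL669918.1, a gene model on the same strand that covers 32.3% of the TAP2 exon bases. In HLA-B, 17.8% of exon bases lie opposite the pseudogene AL671883.2. In HLA-F, 16.1% lie opposite the pseudogene AL645939.1, 12.3% opposite HLA-F-AS1 and 5.92% opposite RPL23AP1, and in TAP1 9.49% lie opposite the antisense RNA PSMB8-AS1. How the authors counted shared reads and strand is not known here, and HLA alleles of the line can differ from the reference, so the split of reads among the HLA genes, TAP1 and TAP2 is uncertain.

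Of the 9 genes 7 lie in the MHC region of chromosome 6 (tested genes there start from 28570535 to 33453083). Of 110 tested genes there 16 were higher and 21 lower, 33.6% in all, next to 33.9% of all tested genes. The region's median log2 fold change was -0.04.

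Genes whose log2 CPM pattern over the 4 libraries was nearest to that of NLRC5 were RTN2, SARS2 and GSTZ1, at a root mean square difference of 0.052, 0.069 and 0.070 among 10495 genes searched. For B2M they were HAUS2, FUBP3 and ERH, at 0.0099, 0.012 and 0.012. With 4 libraries many genes share such a pattern.

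Steps before the transporter showed no common direction. For these and the lists below, the background was 17.1% of all tested genes called higher and 16.9% lower. The immunoproteasome swaps in 3 catalytic subunits that favour peptides fitting class I grooves, and none of them passed the test: PSMB8 was at 26.5 and 24.1 CPM untreated and 27.1 and 22.5 CPM treated (log2 fold change -0.04, interval -0.33 to 0.25), PSMB9 at 8.56 and 7.39 against 10.4 and 7.39 CPM, and PSMB10 at 3.47 and 2.36 against 3.06 and 1.78 CPM. Their constitutive counterparts PSMB5, PSMB6 and PSMB7 did not pass either (0 of 3). Among proteasome regulators, POMP, the assembly chaperone, rose from 69.8 and 70.3 to 103 and 95.9 CPM (log2 fold change 0.50, edgeR adjusted p = 0.00102). PSME3 (0.49) and PSME4 (0.34), nuclear activators, also rose, whereas PSME1, a subunit of the interferon-inducible activator PA28, fell (-0.39). In all, 3 of the 8 immunoproteasome and activator genes were higher and 1 lower. Of 8 cytosolic peptidases 1 was higher and 1 lower: THOP1, which destroys peptides, rose by 0.49 and NPEPPS, an aminopeptidase, fell by 0.32 on the log2 scale, while PREP (-0.21) and NRDC (-0.16) did not pass.

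In the endoplasmic reticulum, 2 of 13 genes of peptide loading, trimming and glycoprotein folding were higher and 3 lower. CALR, the chaperone calreticulin of the loading complex, went from 637 and 631 to 758 and 767 CPM (0.27). This call was lost without either untreated replicate (edgeR adjusted p = 0.315 and 0.312). BCAP29 rose by 0.44, and HSPA5 (-0.28) and GANAB (-0.33), which act in general folding, fell. The chaperone-linked genes PDIA3 (0.01, interval -0.19 to 0.21) and CANX (0.22, edgeR adjusted p = 0.115) did not pass.

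Among the 12 class I transcription factors and cofactors 1 was higher and 1 lower. RFX5, the DNA-binding partner through which NLRC5 acts, went from 49.1 and 42.7 to 35.7 and 31.5 CPM (-0.46 ± 0.12 on the log2 scale; edgeR adjusted p = 0.00916, and 0.235 without untreated replicate 1). EZH2, the methyltransferase of Polycomb repressive complexes, rose by 0.32 (edgeR adjusted p = 0.0154). Its call was lost without untreated replicate 1 (0.288), without untreated replicate 2 (0.138), with the even-count class as a block (0.0679) and with limma on both TPM scales (adjusted p = 0.158 and 0.157). ATF1 (-0.31, edgeR adjusted p = 0.0525), which binds the CREB/ATF site, and RFXANK (-0.36, edgeR adjusted p = 0.0907), a partner of RFX5, did not pass.

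Interferon signalling genes had 0 higher and 2 lower of 19. STAT2, which carries type I interferon signals, went from 69.9 and 69.3 to 36.3 and 34.9 CPM (-0.97 ± 0.10, edgeR adjusted p = 1.2e-05), and the kinase gene JAK1 fell by 0.49. Both kept their calls in all 17 alternatives. IRF1, an interferon-induced activator of class I promoters, was at 15.3 and 14.8 against 21.5 and 18.5 CPM (0.40, edgeR adjusted p = 0.0503) and passed in 5 of the 17 alternatives. IRF9, the partner of STAT2, was at 9.30 and 8.54 against 6.98 and 6.13 CPM (-0.46, edgeR adjusted p = 0.0732). Of 32 tested interferon-stimulated genes 6 were higher and 11 lower, next to 17.1% and 16.9% of all tested genes, and the list's median was -0.21. The antiviral gene OAS3 (1.08) rose with IFI44 (1.02) and IFI44L (1.38), while the guanylate-binding protein gene GBP2 fell from 6.10 and 5.51 to 0.930 and 2.07 CPM.

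A list of 9 NF-kappa-B subunits and inhibitors and the cytokine gene TNF had 7 higher and 0 lower of 10, with a median of 1.11, next to 17.1% of all genes called higher. Without TNF (4.08, on 2 and 0 against 13 and 24 counts) it had 6 higher of 9 and a median of 1.08. Earlier results of these data were known when this list was chosen. TNFAIP3, a feedback inhibitor of the pathway, went from 7.42 and 8.17 to 34.8 and 36.2 CPM (2.20 ± 0.14, edgeR adjusted p = 1.45e-07). The inhibitor genes NFKBIA (1.08), NFKBIB (1.14) and NFKBIE (1.34) rose as well.

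**Figure D4:**
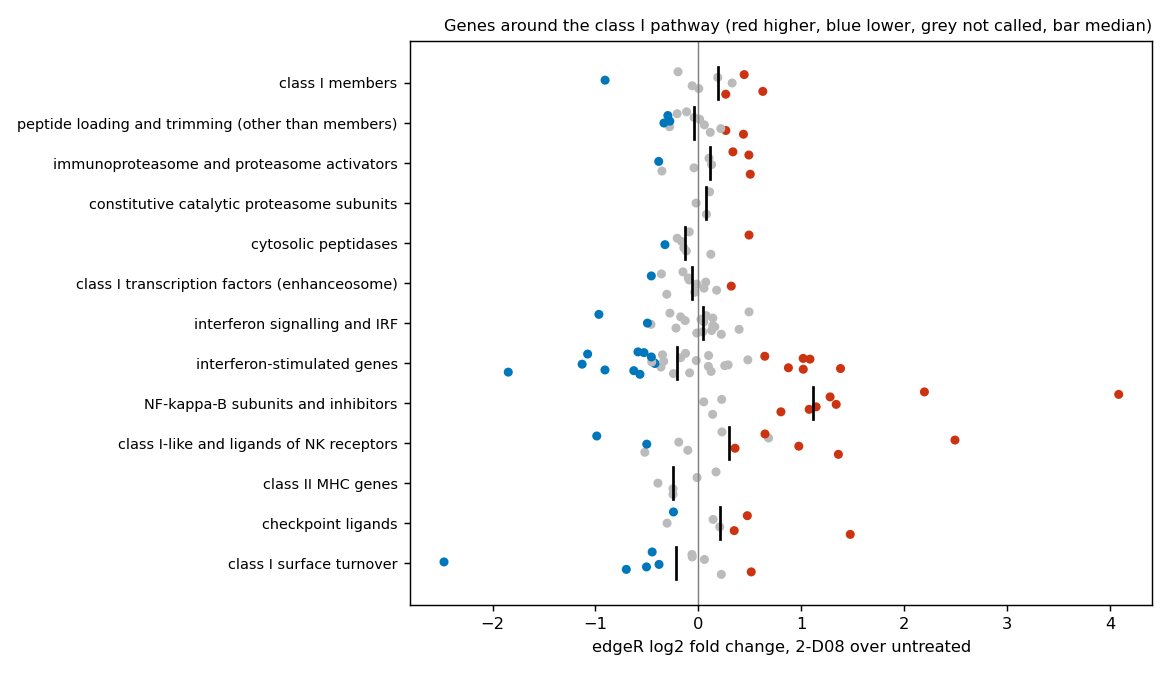
Log2 fold change (edgeR, treated over untreated) of each tested gene of the 9 and of the lists around them; red is higher and blue lower at an adjusted p under 0.05, grey did not pass, and black bars are medians. The NF-kappa-B list, which includes TNF, has a median of 1.11, and the interferon-stimulated list spreads to both sides around -0.21.

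Of 12 tested class I-like genes and ligands of natural killer cell receptors 5 were higher and 2 lower, next to 17.1% and 16.9% of all tested genes. MICB, a stress-induced ligand of NKG2D, went from 18.5 and 20.8 to 38.1 and 38.9 CPM (0.98 ± 0.12, edgeR adjusted p = 5.35e-05), and RAET1E, another NKG2D ligand, from 0.708 and 0.545 to 3.46 and 3.79 CPM (2.49). ULBP2 rose by 0.65, whereas ULBP1, of the same ligand family, went from 17.4 and 19.7 to 8.90 and 9.66 CPM (-0.99 ± 0.16). Of 7 tested checkpoint ligands 3 were higher and 1 lower, next to the same shares of all genes. CD274, which encodes PD-L1, went from 19.4 and 18.6 to 49.2 and 56.1 CPM (1.48 ± 0.12, edgeR adjusted p = 1.11e-06). PDCD1LG2 (0.48), CD276 (0.35) and PVR (-0.24) passed at edgeR adjusted p = 0.0283, 0.0410 and 0.0494. These 3 calls were less firm, past the threshold in 10, 8 and 8 of the 17 alternatives.

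Genes that remove class I or other proteins from the cell surface, or degrade them, numbered 10. Of these 1 was higher and 5 lower, next to 17.1% and 16.9% of all tested genes. MARCHF4, a membrane ubiquitin ligase, went from 57.3 and 56.8 to 80.7 and 82.2 CPM (0.51), and its relative MARCHF8 from 56.4 in both untreated libraries to 35.8 and 33.8 CPM (-0.70). NBR1, an autophagy receptor, fell by 0.38 and the ubiquitin ligase gene WWP2 by 0.45 on the log2 scale.

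MHC class II genes, which serve professional antigen-presenting cells, gave 0 calls higher and 0 lower of 5 tested genes with edgeR, and 0 at an unadjusted p under 0.05. Over all tested genes 33.9% were called, and the share at the unadjusted threshold was not counted. HLA-DPA1 was at 5.33 and 5.51 against 5.58 and 5.19 CPM, and HLA-DPB1 at 8.16 and 6.96 against 10.2 and 7.20 CPM. HLA-DMA, which loads peptide on class II, had a log2 fold change of -0.39 (interval -1.08 to 0.29). CIITA, the class II counterpart of NLRC5, was at 1.38 and 1.51 against 0.864 and 1.46 CPM (log2 fold change -0.25, interval -1.10 to 0.60), a precision too low to show a change of the size seen for NLRC5.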

How the data were processed

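RNA from SK-LMS-1 cells was sequenced in 4 libraries, 2 untreated and 2 treated. STAR 2.7.8a, cutadapt 3.4, DESeq2 and the build GRCh38 are listed per the submitters' processing notes. Counter, strand setting and annotation: not given in the sources used here. Deposited by the authors were raw whole-number counts per gene. They also deposited TPM values, scaled for length and depth. The third deposited table is named normalised counts but holds log2-like transformed values, used only as an alternative.

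Counts were filtered with filterByExpr (minimum count 10), TMM-scaled and tested with edgeR 4.0.16 (robust quasi-likelihood, two-sided, Benjamini-Hochberg) in R 4.3.3. CPM are TMM-scaled. SEs and 95% intervals come from the F statistic. Alternatives used limma 3.58.1, DESeq2 1.42.0 and other scalings, filters and libraries. The fit was also run on simulated counts with a common dispersion for all genes and no excess of even counts. Its outcome is not reported here and is not used as support. Positions and promoters are from RefSeq, transcripts from GENCODE release 29.

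The genes and lists were chosen with earlier results of these data known. Of each list, up to 4 genes with the smallest p and at least 1 CPM are named, plus PSMB8, PSMB9, PSMB10, IRF1, RFX5 and CIITA; 1 further gene of that rule is not reported here. PDIA3, CANX and the marker genes were named after their values were seen.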

Additional observations from a re-analysis of the deposited data

How the results depend on the processing

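Depth limits HLA-F and NLRC5 most, and with 2 libraries a group single libraries decide several calls. Chosen after seeing the data were the fit on deposited transformed values and the block for the even-count class of library. The 3 class I genes called higher became 0 with log2(TPM + 1) and 0 with log2(TPM + 0.1), and the 1 called lower became 0 on both TPM scales, 0 with DESeq2, 0 where genes needed a mean of 5 CPM (NLRC5 is not tested there) and 2 with the replicate block. Over the fits without a library, 1 to 5 were higher and 0 to 2 lower. Genes changed in all numbered 1598 and 1608 on the TPM scales against 4376, and 1866 to 6077 without a library. The causes were not tested. Both TPM fits use the genes that passed the count filter.

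The replicate numbers are not stated to pair libraries, and deviations of same-numbered libraries correlated at 0.16 over 12906 genes and 0.40 over the 10502 with at least 5 CPM. The block gave 6239 changed genes, with 3 class I genes higher and 2 lower (TAPBP added). The treated to untreated ratio of summed heavy chains to B2M was 0.902 on TPM and 0.877 on CPM.

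HLA-B, B2M, TAP2 and NLRC5 kept their direction in every alternative that gave a value and were past the threshold in 15, 12 and 14 of 17 and, for NLRC5, 10 of 16. HLA-C changed sign without a filter on low counts (-0.0049), with the 5 CPM minimum (-0.0036), limma-voom (-0.020), log2(TPM + 1) (-0.037) and log2(TPM + 0.1) (-0.038), the replicate block (-0.0033), thinned counts (-0.012), the even-count block (-0.0084) and transformed values (-0.0080). HLA-F was -0.11 and -0.23 on the TPM scales. PSMB5 was -0.0027 and -0.0028 there, and thinned counts gave PSMB6 0.0075 and HLA-DPA1 0.11. Over the fits without a library the values that changed sign ran from -0.24 to 0.21 for HLA-C, -0.14 to 0.022 for HLA-E, -0.085 to 0.43 for TAP1, -0.18 to 0.087 for PSMB8, -0.13 to 0.37 for PSMB9, -0.75 to 0.025 for PSMB10, -0.027 to 0.23 for PSMB7, -0.076 to 0.22 for PSMB5, -0.12 to 0.070 for PSMB6, -0.088 to 0.42 for HLA-DPB1, -0.74 to 0.017 for CIITA and -0.063 to 0.041 for HLA-DPA1. Of 34 other named genes that changed, 15 stayed past the threshold in every alternative that gave a value, and 0 turned sign.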
